A study of Mus musculus with 6 samples.

Results

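Gene by gene, T cells taken 14 h after their antigen was delivered to dendritic cells were compared with T cells of the same specificity from mice given no antigen. The comparison set the 2 arrays of NOD mice given anti-DEC205-BDC against the 2 arrays of NOD mice given PBS, 4 of the 6 arrays of the series. Every gene with a probe set of exactly 1 gene symbol was tested, which gave 19938 genes from 35556 probe sets, and where a gene had several such probe sets the brightest one, by its mean on the 6 arrays, stood for it. NOD mice become diabetic through autoimmunity. BDC2.5 is a transgenic T cell receptor that recognises a peptide of pancreatic beta cells, and DEC205 is an endocytic receptor of one type of dendritic cell. An antibody against DEC205 that carries the BDC antigen hands that antigen to those cells. All groups were female NOD mice aged 7 weeks that had received BDC2.5 T cells. One group was injected with 100 ng of anti-DEC205-BDC and one with PBS, and the remaining group, given 100 ng of anti-DCIR2-BDC, entered the estimate of the spread and a closing comparison. The transferred CD4 T cells were sorted from the spleen as Thy1.1+CD4+ cells after 14 h. No group received an antibody without antigen, so an effect of antigen and one of antibody cannot be told apart. Both arrays of a group are labelled as biological duplicates, with no number of mice for either, and p-values measure only the spread between these samples.

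A naive CD4 T cell is a small quiescent cell that circulates between blood and lymphoid organs. When its receptor binds antigen, calcium, Ras and NF-kB signals induce transcription factors within hours, among them MYC, IRF4 and the NR4A family. The cell then enlarges before it divides: it builds ribosomes, imports amino acids, makes nucleotides and licenses its DNA for replication. Genes that keep a T cell quiescent or moving between organs are commonly switched off at the same time.

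Array medians, on the log2 scale used throughout, ran from 5.43 to 5.56. Taken over probe sets, which are no independent replicates, the correlation of arrays was 0.974 within PBS and 0.974 within anti-DEC205-BDC, against 0.955 to 0.964 between these groups. DEC205 array 2 correlated better with the anti-DCIR2-BDC arrays (0.979 and 0.980) than with DEC205 array 1, so counts are given without single arrays where these moved them. The sorted cells carried T cell and CD4 markers. The mean level of 11 T cell markers was 10.60 and 10.76 after PBS and 10.31 and 10.30 after the antibody (median log2 change -0.40). Of these 11, 0 rose and 1 fell (9.09%, against 3.53% of all genes). Under the settings described further on, 4 fell with quantile normalization or the replicate block and 0 with every probe set tested. Cd4 measured 10.51 and 10.74 after PBS and 10.43 and 10.38 after anti-DEC205-BDC, a log2 change of -0.22 (95% interval -0.54 to 0.11), while Cd8a read 5.19 and 5.03, then 4.99 and 5.36. The 4 CD8 markers measured changed by -1.09 to 0.06 (median -0.48), with 0 rises and 1 fall, which was lost with every probe set tested. That fall was also lost without DEC205 array 1, and the list had 0 falls without the dimmest 30% or 50% of genes. Their mean level was 5.27 to 5.79 after PBS and 5.01 to 5.06 after the antibody. Of 13 B cell markers 0 passed, and their mean level was 5.13 to 5.26 after PBS and 5.10 to 5.29 after the antibody. Of 18 dendritic cell markers only Ly75 passed (mean level of the list 5.50 to 5.64, then 5.45 to 5.49), and of 14 macrophage markers only Cd14, which passed under 3 of the 15 settings described further on (5.00 to 5.10, then 4.95 to 5.02). Ly75 encodes DEC205 itself. It measured 7.37 and 7.50 after PBS and 6.63 and 6.75 after the antibody, 1.68-fold lower (limma adjusted p = 0.0297). That call was lost with every probe set tested (adjusted p = 0.0903), on the 4 arrays alone (0.0569), and without DEC205 array 1 (0.133), DEC205 array 2 (0.085), PBS array 1 (0.0757), PBS array 2 (0.123) or either anti-DCIR2-BDC array (0.0562 and 0.0563).

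In all, 1060 genes rose and 703 fell at a limma adjusted p under 0.05, which is 5.32% and 3.53% of the 19938 genes and 8.84% together. Most calls came from bright genes: 162 of the rises and 50 of the falls started below the median PBS level. Many lists in the following paragraphs hold mostly bright genes, and the part of brightness in their shares was not tested. All lists were chosen with earlier results of these data known, so their counts describe the lists and are no independent evidence. The median log2 change of all genes was -0.03. Of the called genes, 574 of the 1060 rises reached 2-fold and 40 reached 4-fold, against 253 and 3 of the 703 falls. The arrays of the groups did not overlap in 48.8% of all genes (22.2% upwards, 26.5% downwards), so absence of overlap alone says little here. With each array centred on its median, which moves the median change of all genes to 0.04, the split was 1186 to 498. Under 15 alternative settings the 1763 called genes kept their sign, and 420 of them (326 up, 94 down) passed under all 15. Fewer genes passed without DEC205 array 2 (601 up, 396 down), without PBS array 1 (607 and 406), without PBS array 2 (799 and 397) or without DEC205 array 1 (772 and 359). A test over all probe sets, those without a gene name included, passed 341 and 108. Many of the 15 settings, such as this one, leave the log2 change itself as it was, so the sign could not change there. Nor can leaving out 1 array change the sign of a gene whose groups do not overlap. A gene named below as passing did so under all 15 settings unless the text says otherwise.

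**Figure D1:**
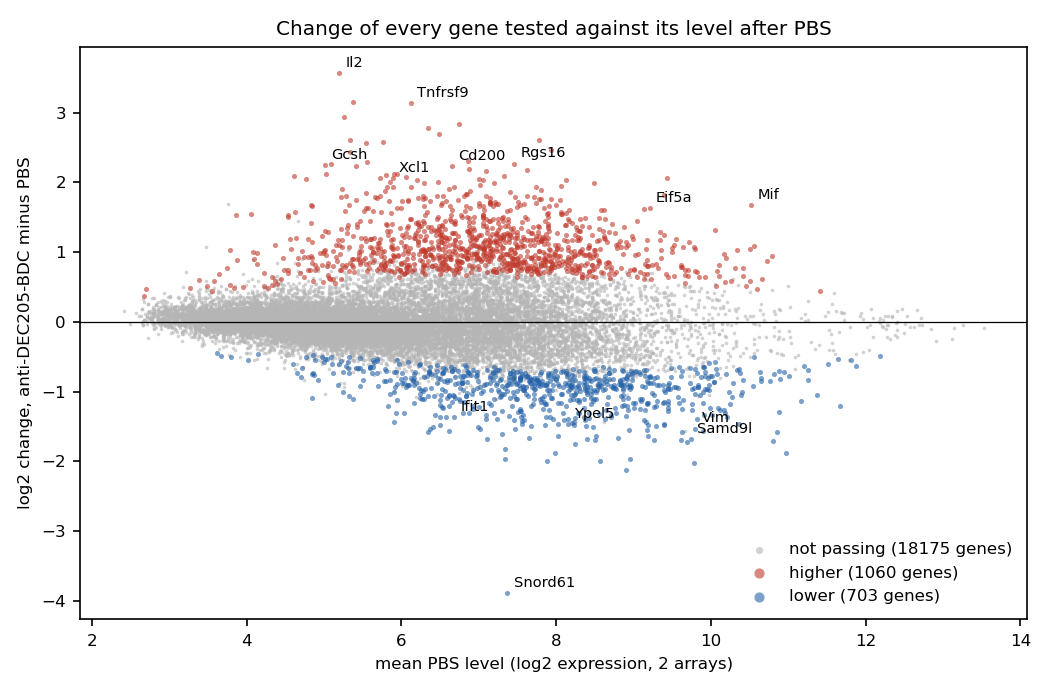
Each point is 1 of the 19938 genes, with its mean log2 level on the 2 PBS arrays on the x axis and its log2 change (anti-DEC205-BDC minus PBS) on the y axis; 1060 higher genes are red, 703 lower genes blue and 18175 that did not pass grey. Rises spread further from 0 than falls, and most genes at every level are grey.

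Transcripts of many ribosomal RNA processing factors rose. Of 112 measured factors that cut, modify and assemble ribosomal RNA, 87 rose and 0 fell, with a median log2 change of 1.16. Without DEC205 array 2 or PBS array 1 the count was 67 and 66, and with every probe set tested it was 50. Mrto4, an assembly factor of the large subunit, measured 6.60 and 6.89 after PBS and 9.56 and 9.60 after the antibody. That is a 7.16-fold rise (standard error of the log2 change 0.18, limma adjusted p = 0.000193), and the lower antibody array lay far above the higher PBS array. Pno1, needed to mature the small subunit, went from 6.29 and 6.12 to 8.10 and 8.40 (log2 change 2.04). The large-subunit factors Rrp15 and Nifk rose by 2.08 and 1.89. Among abundant nucleolar proteins, Fbl, the methyltransferase fibrillarin, rose 3.07-fold, and Ncl (nucleolin) and Npm1 (nucleophosmin) rose 2.06- and 2.04-fold. The list was not uniform: Riok1, a kinase of small-subunit maturation, measured 7.09 and 7.26, then 6.94 and 7.45, and Sbds, a release factor of the large subunit, changed by -0.03, with overlapping arrays in both genes.

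Myc, a transcription factor known to drive genes of ribosome synthesis, measured 8.86 and 9.99 after PBS and 11.18 and 11.79 after anti-DEC205-BDC, a 4.17-fold rise (adjusted p = 0.0028) that was lost with every probe set tested (0.0613). Its partner Max stood at 10.06 and 9.99, then 9.97 and 9.91 (log2 change -0.09, 95% interval -0.49 to 0.32). MYC binds the E-box CACGTG, and this hexamer, which reads the same on both strands, was sought in RefSeq promoters (GRCm38.p6, 250 bases before to 50 after the start) of the genes with exactly 1 listed start. It occurred in 8.29% of the 12935 such promoters of genes tested, in 15.2% of those of genes that rose (112 of 737), in 6.83% of those of genes that fell (28 of 410) and in 21.4% of those of the rRNA processing factors (18 of 84). A match is a stretch of letters and no proof of binding. The 250 bases before the start of Nop2 and Dhx33, the rRNA processing genes with the largest changes among those with a match in this stretch, are shown 5′ to 3′ with the E-box in capitals. Nop2, an rRNA methyltransferase (6.59 and 6.87, then 8.30 and 8.67), lies on the plus strand of chr6:125131633-125131882, and Dhx33, a helicase of the nucleolus (7.04 and 6.84, then 8.13 and 8.39), on the minus strand of chr11:71004433-71004682. The matches lie 54 and 29 bases before the start site. Nop2 is named because of this match and not by the naming rule.
Nop2: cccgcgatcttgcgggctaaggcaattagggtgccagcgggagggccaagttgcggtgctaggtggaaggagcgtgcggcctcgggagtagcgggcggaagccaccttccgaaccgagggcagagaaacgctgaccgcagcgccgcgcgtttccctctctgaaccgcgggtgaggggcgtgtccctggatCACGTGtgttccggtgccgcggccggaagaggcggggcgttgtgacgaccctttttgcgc
Dhx33: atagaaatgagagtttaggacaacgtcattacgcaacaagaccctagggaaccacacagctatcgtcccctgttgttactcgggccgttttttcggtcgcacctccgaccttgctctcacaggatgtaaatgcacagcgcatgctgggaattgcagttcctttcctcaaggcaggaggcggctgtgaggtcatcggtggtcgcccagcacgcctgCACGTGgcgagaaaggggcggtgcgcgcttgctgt

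Of 33 subunits and factors of RNA polymerases I and III, which transcribe ribosomal and transfer RNA, 12 rose and 1 fell (median 0.59). The count of rises was 4 without DEC205 array 2, 7 without PBS array 1 and 3 with every probe set tested, and the fall was lost without any 1 of the 4 arrays. Polr1b, the second largest subunit of polymerase I, went from 6.20 and 6.35 to 7.76 and 8.31, a 3.38-fold rise (adjusted p = 0.00219). Cd3eap, another polymerase I subunit, and Polr3d of polymerase III rose by 1.30 and 1.18. Polymerase III holds either Polr3g or its paralog Polr3gl, and these moved apart: Polr3g rose from 5.84 and 6.30 to 6.83 and 7.11 and Polr3gl fell from 7.57 and 7.57 to 6.68 and 6.61. Both calls were fragile. Polr3g was lost without DEC205 array 2 (adjusted p = 0.149), without PBS array 1 (0.171), with every probe set (0.116), on the 4 arrays alone (0.0505) and without either anti-DCIR2-BDC array (0.0536 and 0.0535). Polr3gl was lost with every probe set (0.0752) and without DEC205 array 1 (0.0535), DEC205 array 2 (0.076), PBS array 1 (0.0624) or PBS array 2 (0.057).

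Small RNAs and the enzymes that act on them rose in part. Of 51 small nucleolar RNA genes, guides for rRNA modification that are mostly encoded in introns of other genes, 10 rose and 2 fell (median 0.45). With every probe set tested the counts were 2 and 0, and 1 fell without DEC205 array 1. Snora74a went from 7.01 and 6.22 to 8.37 and 8.68, a 3.75-fold rise (adjusted p = 0.00239). Snora20 rose from 5.47 and 5.34 to 8.20 and 7.08, but was lost with every probe set tested (0.0888). Of the subunits of RNase P and MRP, which trim transfer RNA and ribosomal RNA precursors, 4 of 10 rose, among them Pop1 (5.36 and 5.77, then 7.24 and 7.15). The catalytic exosome nuclease Dis3, which degrades RNA from the 3′ end, rose 3.35-fold from 6.34 and 6.39 to 8.28 and 7.94. It was 1 of 4 among 10 exosome genes that rose. These last families were put together after their values were seen, and fewer of their members passed without PBS array 1 (2 of 10 and 1 of 10), without DEC205 array 1 (2 and 2), without DEC205 array 2 (4 and 1), without PBS array 2 (4 and 2) and with every probe set (1 and 1).

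Ribosomal protein genes were counted by compartment, with no test between the compartments. Of 61 cytosolic ribosomal protein genes 3 rose and 0 fell, and their median was 0.03. Rpl10 measured 12.42 and 12.35, then 12.36 and 12.39, with a 95% interval of -0.18 to 0.17 for its log2 change, and Rplp0 12.15 and 12.29, then 12.14 and 12.33 (-0.21 to 0.24). A rise of the size seen in the processing factors lay outside both intervals, although most probe sets of this list sit near the upper end of the scale, where array signals can flatten. The 3 that rose were Rps27l (1.35), Rpl7l1 (1.05) and Rpl30 (0.85), of which Rps27l and Rpl7l1 encode relatives of ribosomal proteins. Rps27l was lost with every probe set tested (adjusted p = 0.0536), and so was Rpl30 (0.0742), which was also lost without DEC205 array 1 (0.0664), DEC205 array 2 (0.0934) or PBS array 2 (0.0941). Of 78 mitochondrial ribosomal proteins, encoded in the nucleus, 33 rose and 0 fell (median 0.71). Mrpl15 rose from 6.50 and 6.48 to 8.04 and 7.67, Mrpl13 by 1.38 and Mrpl42 by 1.36. That count was 17 without DEC205 array 2, 16 without PBS array 1 and 3 with every probe set tested.

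Of 43 translation factors 22 rose and 0 fell (median 0.62), or 13 without DEC205 array 2 and 13 with every probe set tested. Eif5a, the only protein with the amino acid hypusine and a helper of elongation, went from 9.19 and 9.23 to 10.76 and 10.91. Its 3.09-fold rise had a standard error of 0.13 on the log2 scale and an adjusted p of 0.000306. Initiation factors rose with it: Eif3b by 1.38, Eif2s2, a subunit of the factor that brings the initiator tRNA, by 1.30, and Eif2b3, a subunit of its exchange factor, by 1.28. Both termination factors, Etf1 and Gspt1, rose, by 1.24 and 1.18. Eif3e and Eif3f, members of the same complex as Eif3b, stood at 0.06 and -0.05, with 95% intervals of -0.28 to 0.39 and -0.39 to 0.29.

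Transfer RNA enzymes were counted in the same way. Of 21 cytosolic tRNA synthetases and scaffold proteins, which charge tRNA with amino acids, 15 rose and 0 fell (median 1.20), and the counts stayed at 13 or above with any 1 array left out and at 11 with every probe set tested. Eef1e1, a scaffold protein of the synthetase complex, measured 6.70 and 7.01 after PBS and 9.11 and 9.22 after the antibody, a 4.95-fold rise (adjusted p = 0.000306). The scaffold gene Aimp2 rose by 1.63, Rars (arginine) by 1.47 and Iars (isoleucine) by 1.39. Of 16 mitochondrial synthetases only Yars2 and Nars2 rose (median of the list 0.11), and neither passed without any 1 of the 4 arrays or with every probe set tested. The adjusted p without DEC205 array 1, DEC205 array 2, PBS array 1 and PBS array 2 was 0.07, 0.177, 0.142 and 0.0937 for Yars2, with 0.133 over every probe set, and 0.0885, 0.0991, 0.0757 and 0.105 for Nars2, with 0.0751. Among 53 tRNA modification enzymes 11 rose and 0 fell. Pus7, a pseudouridine synthase, went from 5.09 and 5.36 to 6.99 and 7.26, and Qtrt2, which inserts queuine, and Nsun2, a cytosine methyltransferase, rose by 1.73 and 1.45. That count was 6 without DEC205 array 2, 6 without PBS array 1 and 4 with every probe set tested.

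Among protein folding and degradation genes, those of the chaperonin and the proteasome rose in large part. Of 15 members of the chaperonin CCT and its prefoldin partners, which fold actin and tubulin, 13 rose and 0 fell (median 1.08). Cct3 went from 7.53 and 7.41 to 9.15 and 9.38, a 3.47-fold rise (adjusted p = 0.000549). Cct7 rose by 1.49 and Pfdn1 by 1.42, and Pfdn5 did not pass (10.01 and 9.79, then 9.40 and 9.68). Among 37 heat shock chaperones and cochaperones 13 rose, or 4 with every probe set tested. They were led by the Hsp70 and Hsp90 adaptors St13 (8.06 and 8.09, then 9.64 and 9.62) and Stip1 (log2 change 1.42). Of 41 proteasome genes 25 rose and 0 fell (median 0.88), or 15 without DEC205 array 2 and 13 with every probe set. Psmb7, a catalytic subunit, measured 8.56 and 8.87, then 10.15 and 10.08, and the base subunit Psmc1, the assembly chaperone Pomp and the nuclear activator Psme3 rose by 1.39, 1.20 and 1.17. Of 35 chaperones of the endoplasmic reticulum 8 rose, among them the disulphide isomerase P4hb (7.90 and 7.95, then 8.97 and 8.95). Xbp1, the transcription factor of the unfolded protein response, stood at 6.80 and 6.86, then 6.79 and 6.86. The count for the reticulum was 4 without DEC205 array 2 or PBS array 1 and 3 with every probe set tested.

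Of 16 genes of the immunoproteasome and MHC class I, 5 fell and 1 rose (median -0.48). Psmb9, the interferon-inducible catalytic subunit, measured 10.03 and 10.01 after PBS and 9.07 and 9.44 after the antibody, 1.7-fold lower (adjusted p = 0.0281). Tap1, which pumps peptides into the reticulum, went from 8.70 and 9.04 to 8.09 and 8.01. Psmb8 and Psmb10, the other inducible subunits, changed by -0.32 and -0.36 and did not pass. Psmb9 was lost with every probe set tested (adjusted p = 0.107) and without DEC205 array 1 (0.177), PBS array 1 (0.113) or PBS array 2 (0.0946). Tap1 was lost with every probe set (0.0858) and without DEC205 array 1 (0.0764), DEC205 array 2 (0.115) or PBS array 2 (0.138). In all 1 fell without DEC205 array 1, 1 without DEC205 array 2, 3 without PBS array 1 and 0 without PBS array 2 or with every probe set.

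Part of the genes for nuclear transport and RNA splicing rose. Of 57 nuclear pore and transport genes 24 rose and 0 fell (median 0.65), or 15 without DEC205 array 2, 15 with every probe set and 16 or more without another array. Nup43, a pore protein, went from 5.63 and 5.96 to 7.84 and 7.96 (4.29-fold), the importin Kpna2 from 6.93 and 6.77 to 8.57 and 8.82 (3.59-fold), and Ran and its cofactor Ranbp1, which set the direction of transport, rose by 1.47 and 1.60. Nup153, another pore protein, changed by -0.05. Among 70 splicing factors 24 rose and 3 fell (median 0.47). Snrpd1, a core protein of spliceosomal RNPs, measured 8.43 and 8.74, then 10.26 and 10.11. Ptbp1, a splicing repressor, rose by 1.16. The kinases Clk1 (9.73 and 9.83, then 9.14 and 8.51) and Clk4 (9.19 and 9.16, then 8.49 and 8.16), which phosphorylate splicing factors, were named after their values were seen and fell. Clk1 was lost with every probe set tested (adjusted p = 0.112) and without DEC205 array 2 (0.143), PBS array 1 (0.0703) or PBS array 2 (0.0939), and Clk4 under the same settings (0.113, 0.174, 0.113 and 0.0937) and with median centring (0.0558). The splicing rises numbered 15 on the 4 arrays alone, 14 without either anti-DCIR2-BDC array, 15, 10, 12 and 12 without DEC205 array 1, DEC205 array 2, PBS array 1 and PBS array 2, and 8 with every probe set. The 3 falls were 0 without DEC205 array 2 or either PBS array.

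**Figure D2:**
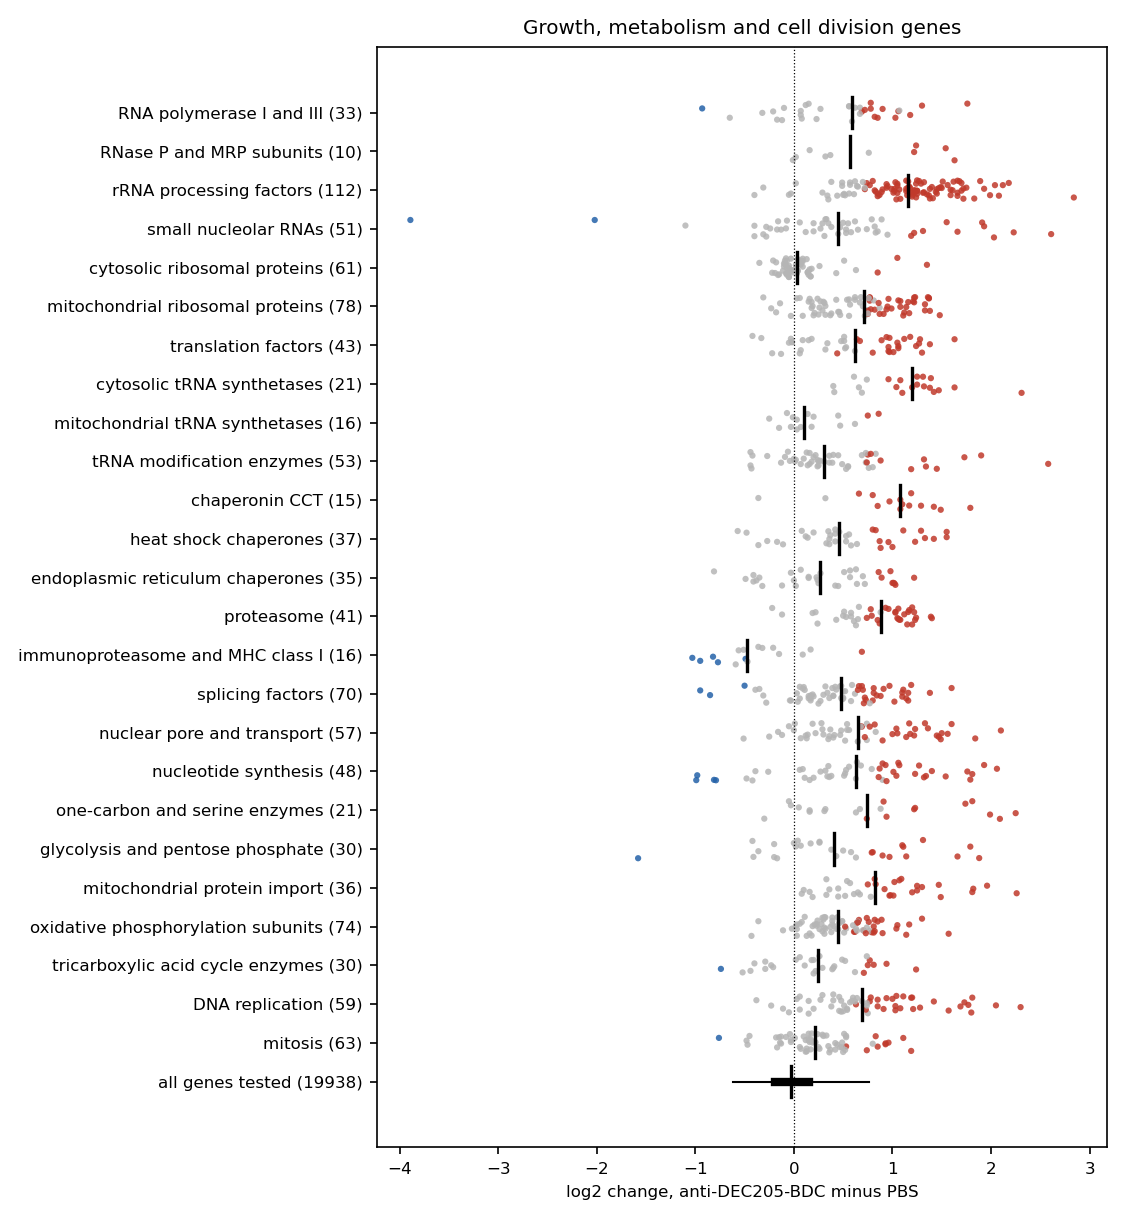
Each point is the log2 change (anti-DEC205-BDC minus PBS) of 1 gene of a group named at the left with its number of measured genes; red points rose, blue points fell and grey ones did not pass, the black tick is the group's median, and the bottom row gives all genes with the quartiles as a thick bar and the 5th to 95th percentiles as a line. Medians of rRNA processing (1.16), cytosolic tRNA synthetases (1.20) and the chaperonin (1.08) lie far to the right, and those of cytosolic ribosomal proteins (0.03) and mitochondrial synthetases (0.11) near 0.

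Of 48 genes of nucleotide metabolism 20 rose and 4 fell (median 0.64). Umps, which completes uridine monophosphate, measured 6.91 and 6.45 after PBS and 8.55 and 8.65 after the antibody, a 3.80-fold rise (adjusted p = 0.000772). Cad, which starts the same pathway, rose by 1.81, and Ppat and Gart, early enzymes of purine synthesis, by 1.40 and 1.34. Dctd, which supplies thymidylate synthesis, rose by 1.79. Samhd1, which degrades deoxynucleotides and was picked after its values were seen, fell from a mean of 9.98 after PBS to 9.08 and 8.92 (1.98-fold, adjusted p = 0.00677). The salvage kinase Tk1 did not pass and its arrays overlapped (7.06 and 7.99, then 7.46 and 7.81). The 20 rises were 14 without DEC205 array 2 or PBS array 1 and 8 with every probe set tested, and the 4 falls were 1 or 2 without any 1 array.

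One-carbon and serine enzymes, which feed these pathways, showed 10 rises and 0 falls among 21 (median 0.74), or 6 without PBS array 1 and 5 with every probe set tested. Gcsh, the lipoyl carrier of the glycine cleavage system, went from 4.76 and 5.26 to 6.87 and 7.66 (4.77-fold). The cytosolic Shmt1, which splits serine, rose from 5.88 and 5.80 to 7.54 and 7.62, and Psat1, of serine synthesis, by 1.81. Mthfd2, the mitochondrial dehydrogenase of the pathway, measured 7.45 and 7.33, then 7.57 and 7.85, and did not pass. Srm, which makes the polyamine spermidine, rose 4.49-fold (6.95 and 7.23, then 8.81 and 9.71), 1 of 4 polyamine genes of 14 that rose, or of 2 with every probe set tested. Of 25 amino acid transporters 5 rose and 1 fell, with the glutamine carrier Slc1a5 from 8.12 and 7.77 to 9.72 and 9.68. These transporter rises numbered 2 with every probe set tested or without DEC205 array 2, and 3 without any other array. Of 24 genes of the integrated stress response, the programme induced by amino acid shortage, 4 rose (16.7%, against 5.32% of all genes) and 0 fell. Only 1 rose with every probe set tested. The median of the list was -0.04, near the -0.03 of all genes, and Ddit3, Chac1 and Nupr1 stood at 0.04, -0.13 and -0.04 with overlapping arrays.

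In energy metabolism, 11 of 30 genes of glycolysis and the pentose phosphate pathway rose and 1 fell (median 0.41), or 7 without DEC205 array 2 and 5 with every probe set tested. Hk2, an inducible hexokinase, went from 5.04 and 5.00 to 6.23 and 6.42 and Rpia, which makes ribose phosphate, from 6.58 and 6.83 to 7.77 and 7.86. Slc2a1, a main glucose carrier of T cells, overlapped between the groups (8.24 and 8.78, then 8.67 and 8.68). Txnip, which removes glucose carriers from the surface, fell from a mean of 10.85 after PBS to 9.62 and 8.92 (2.99-fold), a call lost with every probe set tested (adjusted p = 0.0545). In mitochondria, 20 of 36 protein import genes rose and 0 fell (median 0.83), or 13 without DEC205 array 2 and 10 with every probe set tested. Timm8a1, an import chaperone, measured 7.09 and 6.96, then 8.77 and 9.19, and the chaperonin Hspd1 rose 3.54-fold (9.68 and 9.09, then 11.14 and 11.28). Of 74 subunits of the respiratory chain and ATP synthase 24 rose and 0 fell (median 0.45), among them Ndufa12 (1.30), Ndufc2 (1.17) and Atp5g1 (1.04). Without DEC205 array 1, DEC205 array 2 or PBS array 2 that count was 12, 8 or 9, and with every probe set it was 5. Of 30 tricarboxylic acid cycle enzymes 6 rose and 1 fell, and Sdha stood at 0.02 (95% interval -0.37 to 0.41). None of the 6 passed with every probe set, and 3, 1, 3 and 2 rose without DEC205 array 1, DEC205 array 2, PBS array 1 and PBS array 2.

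Redox enzymes, a family chosen after their values were seen, showed 9 rises among 13 peroxiredoxins, thioredoxins and glutaredoxins. Prdx1 rose 2.0-fold (9.58 and 9.43, then 10.53 and 10.48) and the mitochondrial Prdx3 rose by 1.13. Their count was 4 without PBS array 1 and 3 with every probe set tested. Vdac1, the main pore of the outer mitochondrial membrane, rose 2.24-fold and Slc25a5, which exchanges ADP for ATP, 2.10-fold. The family of Vdac1 was also put together after its values were seen. Cholesterol and fatty acid genes split, with 5 of 48 up and 3 down (10.4% and 6.25%, against 5.32% and 3.53% of all genes) and a median of 0.12. Without DEC205 array 2 or PBS array 1 only 2 rose, without DEC205 array 1 or PBS array 2 only 1 fell, and with every probe set 1 rose and 0 fell. Insig1 and Mvd, targets of the sterol-sensing pathway, changed by 0.02 and -0.10 with overlapping arrays.

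Of 59 DNA replication genes 27 rose and 0 fell (median 0.69). Of 63 mitosis genes 9 rose and 1 fell (median 0.21), and the difference between these lists was not tested. The replication count was 15 without DEC205 array 2, 16 without PBS array 1, 18 or 19 without another array and 9 with every probe set tested. Prim1, the catalytic primase subunit, measured 5.23 and 5.88 after PBS and 7.75 and 7.96 after the antibody (4.93-fold, standard error of the log2 change 0.23, adjusted p = 0.000671). Pold2, of DNA polymerase delta, rose by 2.05. Cdc7, the kinase that fires origins, did not pass (5.94 and 6.14, then 6.25 and 5.95). Among mitosis genes the condensin Smc2 rose from 5.49 and 5.73 to 6.71 and 6.89. The mitotic kinase Aurka (6.26 and 6.42, then 6.33 and 6.27) and the checkpoint gene Mad2l1 (6.71 and 6.33, then 6.47 and 6.32) overlapped between the groups. The mitosis rises numbered 2, 10, 3 and 5 without DEC205 array 1, DEC205 array 2, PBS array 1 and PBS array 2, and 2 with every probe set.

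E2F factors switch on replication genes through sites that include TTTNGCGC. On either strand this octamer occurred in 1.81% of the 12935 promoters of genes tested, in 5.16% of those of genes that rose (38 of 737), in 1.22% of those of genes that fell (5 of 410) and in 25.6% of those of the replication genes (10 of 39). The 250 bases before the start of Mcm6 and Mcm5, subunits of the replicative helicase, are shown with the matches in capitals, because these genes had the largest changes among replication genes with a match in this stretch. Mcm6 (7.16 and 7.31, then 9.09 and 8.76) lies on the minus strand of chr1:128359706-128359955 and has 3 matches. Mcm5 (6.35 and 6.30, then 7.87 and 7.92) lies on the plus strand of chr8:75109259-75109508 and has 2. In each gene a run of 12 capitals holds a match on either strand that overlap each other.
Mcm6: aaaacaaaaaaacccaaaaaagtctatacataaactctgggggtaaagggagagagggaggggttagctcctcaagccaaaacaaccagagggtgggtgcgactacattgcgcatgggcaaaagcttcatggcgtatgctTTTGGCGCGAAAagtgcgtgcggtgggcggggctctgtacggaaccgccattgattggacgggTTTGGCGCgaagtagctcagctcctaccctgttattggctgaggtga
Mcm5: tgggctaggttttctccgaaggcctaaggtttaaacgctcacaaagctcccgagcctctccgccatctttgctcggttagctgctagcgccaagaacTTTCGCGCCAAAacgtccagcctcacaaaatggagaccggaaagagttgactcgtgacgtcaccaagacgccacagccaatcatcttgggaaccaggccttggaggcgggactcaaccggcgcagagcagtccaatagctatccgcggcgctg

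Regulators of the G1 phase moved in opposite directions: 8 of 38 rose and 7 fell. Cdk4, the kinase of D cyclins, went from 8.06 and 8.46 to 9.42 and 9.82, and Ccnd2, cyclin D2, from 9.63 and 9.46 to 10.76 and 10.72. The inhibitor Cdkn1b (p27) fell from 8.83 and 8.72 to 7.57 and 7.35, 2.48-fold, a call lost with every probe set tested (adjusted p = 0.0517). Of the list, 5 rose without DEC205 array 1 or 2, between 2 and 5 fell without any 1 array, and 2 rose and 0 fell with every probe set. Chromatin genes also moved both ways, with 15 of 56 up and 5 down. The arginine methyltransferases Prmt1 (7.22 and 8.02, then 9.31 and 9.54) and Prmt5 (log2 change 1.50), the DNA methyltransferase Dnmt3a (1.17) and Hells, a remodeller linked to DNA methylation (2.12), rose, and the acetyltransferase Kat2b, picked after its values were seen, fell from 7.31 and 7.25 to 6.19 and 6.20. The chromatin rises numbered 7 without DEC205 array 2, 8 without PBS array 1 and 6 with every probe set tested. The falls numbered 3 without DEC205 array 1 or 2, 2 without PBS array 2 and 1 with every probe set.

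Transcription factors downstream of the T cell receptor responded selectively. In the family of Egr, Nr4a and NFAT genes, targets and effectors of calcium signals, 8 of 29 rose and 1 fell, or 5 and 1 without DEC205 array 1 or 2, 4 and 1 without PBS array 1 and 4 and 0 with every probe set tested. Egr2 measured 8.05 and 8.29, then 9.60 and 9.95 (3.05-fold, adjusted p = 0.000939), and Nr4a2 5.56 and 5.25, then 7.50 and 6.81. Ppp3ca, the catalytic subunit of calcineurin, which activates NFAT, fell from 7.29 and 6.89 to 6.0 and 5.51, lost with every probe set (0.0721). Of 27 NF-kB genes 6 rose and 1 fell, or 2 rises with every probe set or without DEC205 array 2 and 3 without another array. Rel, the family member typical of activated T cells, went from 8.65 and 8.59 to 9.72 and 9.99 and Nfkbid, a nuclear regulator, from 7.48 and 6.90 to 8.60 and 8.75. Rela and Nfkbia, the ubiquitous member and its inhibitor, stood at -0.10 and -0.08 (Nfkbia 95% interval -0.43 to 0.27). Of 22 AP-1 genes, which respond within the first hour of a signal, only Fosl2 and Atf3 rose (9.09%, against 5.32% of all genes). The median of the list was -0.11. Jun, a founding member of AP-1, was the 1 fall (4.55%, near the 3.53% of all genes), from 10.15 and 10.03 to 9.08 and 8.63. Jun was lost with every probe set tested (adjusted p = 0.0643). Fosl2 was lost with every probe set (0.0917) and without DEC205 array 1 (0.0975), DEC205 array 2 (0.0724) or PBS array 2 (0.136), and Atf3 with every probe set (0.11) and without DEC205 array 1 (0.0516), DEC205 array 2 (0.101), PBS array 1 (0.0536) or PBS array 2 (0.116). The AP-1 motif TGANTCA, on either strand, lay in 6.93% of the 12935 promoters, 3.8% of those of genes that rose and 5.85% of those of genes that fell, and the NF-kB motif (GGG, any 5 bases, CC) in 58.0%, 64.7% and 65.6%.

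Interferon regulatory factors split. Irf4, which is made in proportion to receptor signals, measured 6.46 and 6.51 after PBS and 9.06 and 9.31 after the antibody, and Irf8, its closest relative, 6.47 and 6.59, then 7.85 and 8.60 (3.24-fold, adjusted p = 0.00273). Irf7, which amplifies type I interferon, went down from 7.33 and 7.57 to 6.07 and 6.02 (2.65-fold, adjusted p = 0.00161). Over the list of 28 interferon regulatory factors, STATs and partners, 4 rose and 7 fell, and Stat3 stood at 0.04 (95% interval -0.34 to 0.43). Without DEC205 array 1, DEC205 array 2, PBS array 1 and PBS array 2 the counts were 3 and 5, 2 and 4, 2 and 2, and 2 and 1, and with every probe set 2 and 2.

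Of 38 factors of quiescence 7 fell (18.4%) and 2 rose (5.26%, near the 5.32% of all genes), with a median of -0.33. Klf3 measured 9.64 and 9.61, then 8.49 and 8.25 (2.39-fold lower, adjusted p = 0.00229), and Klf2, which keeps T cells quiescent and circulating, 9.47 and 9.70, then 8.46 and 8.54, lost with every probe set (adjusted p = 0.0504). Myb rose from 6.03 and 6.55 to 7.97 and 7.92. Foxp1 and Runx3 stood at 0.07 and 0.06. The 7 falls were 4 without DEC205 array 1 or 2, 3 without PBS array 2, 1 with every probe set and 11 or 12 with quantile normalization, the replicate block or fewer dim genes. Among 19 factors that set helper lineages 2 rose and 2 fell (10.5% each, against 5.32% and 3.53% of all genes), and 0 of either with every probe set tested. Without DEC205 array 2 only 1 rose and 0 fell, and without DEC205 array 1, PBS array 1 and PBS array 2 the counts were 2 and 1, 1 and 1, and 1 and 2. Eomes, a T-box factor, went from 6.36 and 5.51 to 7.57 and 7.57, lost with every probe set tested (adjusted p = 0.0654). Gata3 (8.02 and 8.54, then 8.32 and 8.52) and Foxp3 (8.20 and 8.43, then 7.90 and 8.10) did not pass.

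**Figure D3:**
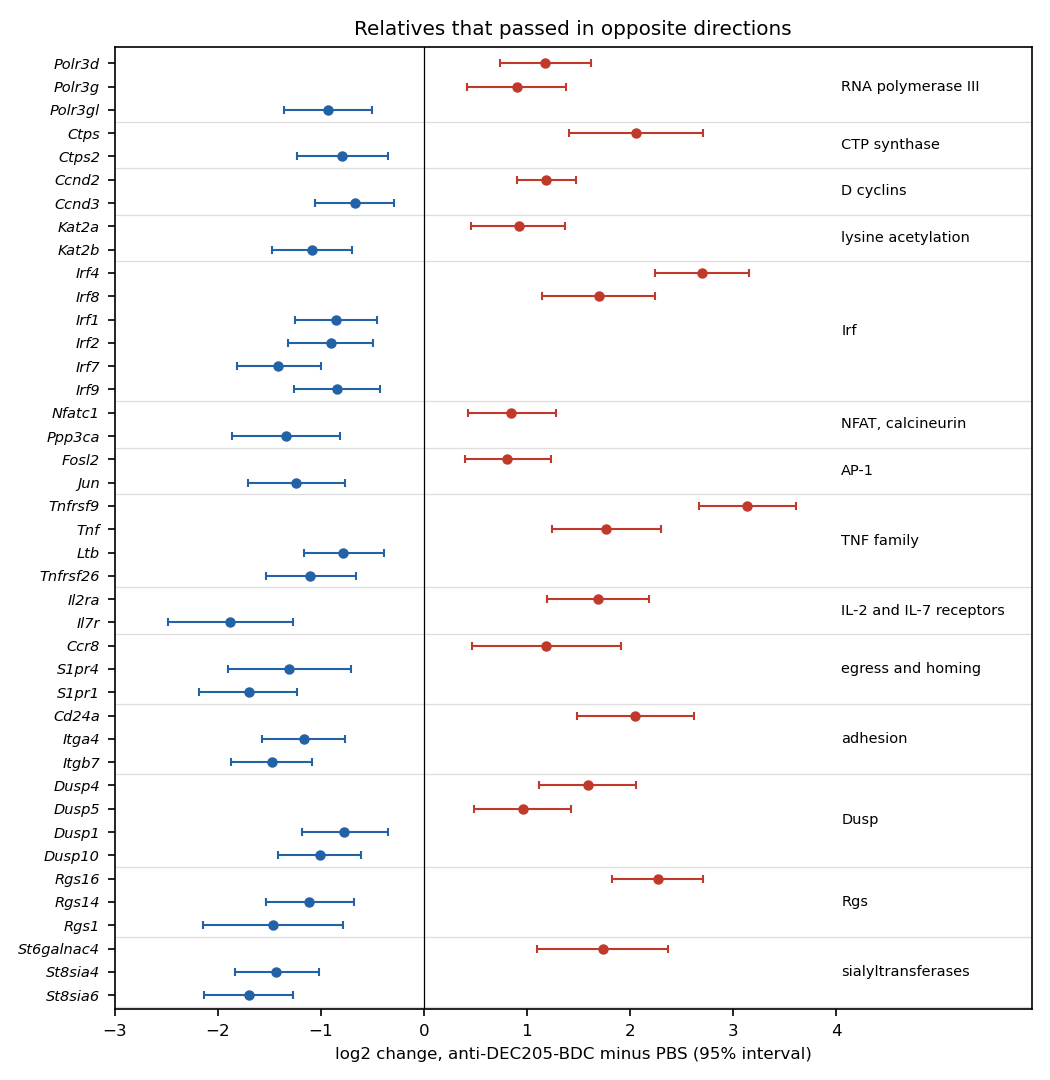
Log2 changes (anti-DEC205-BDC minus PBS) with 95% intervals of genes that belong to 1 family or pathway, red where they rose and blue where they fell; the families were picked after their values were seen. Irf4 and Irf8 lie to the right and 4 other interferon regulatory factors to the left, and Dusp, Rgs, cyclin, sialyltransferase and TNF family genes also lie on both sides of 0.

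Calls among secreted signals were few: 6.9% of cytokine genes rose and 3.45% fell, near the 5.32% and 3.53% of all genes. Of 29 cytokine genes, Il2 and Mif rose and Il16 fell, and Il16 passed under only 6 of the 15 settings. Without DEC205 array 1, 4 rose. Mif, a proinflammatory cytokine that T cells store, went from 10.50 and 10.54 to 12.05 and 12.36 (3.21-fold, standard error of the log2 change 0.11, adjusted p = 0.000193). The effector cytokines Ifng (6.21 and 5.21, then 6.63 and 6.07), Il17a (5.50 and 5.24, then 5.38 and 5.91) and Il13 (5.47 and 5.83, then 6.32 and 5.31) did not pass and their arrays overlapped. Il3 did not pass either: its antibody arrays measured 4.55 and 6.34 and lay far apart, above PBS at 3.67 and 3.84. It passed without DEC205 array 1 (adjusted p = 0.00395), with the replicate block (0.0105) and without the dimmest 30% (0.0401) or 50% (0.025) of genes. Of 19 chemokines, Xcl1, which attracts cross-presenting dendritic cells, rose from 6.26 and 5.51 to 7.70 and 8.19 (4.16-fold, adjusted p = 0.00176) and Ccl1 from 5.73 and 5.37 to 7.21 and 7.16. These 2 rises are 10.5% of the list, against 5.32% of all genes, and 0 chemokines fell. Ccl5 differed widely within each group (10.75 and 9.22, then 9.51 and 8.35) and passed only with the replicate block (0.00552).

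Of 30 TNF family genes 9 rose and 3 fell. Tnf itself measured 7.32 and 6.95, then 8.75 and 9.06. Tnfsf11 (RANKL) went from 6.85 and 6.88 to 8.35 and 8.25, and the costimulatory receptor Tnfrsf4 (OX40) rose by 1.55. Fas and Tnfrsf1a, death and TNF receptors, stood at -0.06 and 0.11 with overlapping arrays, and Tnfrsf26 fell from 8.38 and 8.33 to 7.28 and 7.24, lost with every probe set tested (adjusted p = 0.0534). The rises numbered 4 with every probe set, and the falls 1 without DEC205 array 1 or PBS array 2 and 0 with every probe set. Costimulatory and inhibitory receptors showed 8 rises and 3 falls among 37. Cd200, the ligand of an inhibitory receptor on myeloid cells, rose from 6.53 and 6.78 to 8.75 and 9.01 (4.69-fold, adjusted p = 0.000439). Transcripts of both ligands of PD-1 rose in the sorted cells, Cd274 (7.23 and 7.58, then 8.81 and 9.21) and Pdcd1lg2 (4.65 and 4.61, then 6.22 and 6.21), as did Lag3, by 1.11. Cd28 (10.19 and 10.02, then 9.93 and 9.94) and Icos (7.89 and 7.75, then 7.84 and 7.59) did not pass. Cd1d1, which presents lipids, fell 3.21-fold (7.28 and 6.93, then 5.26 and 5.58). Without DEC205 array 2, PBS array 1 or PBS array 2, 4, 5 or 5 of these receptors rose, and 4 with every probe set, while 1 fell without PBS array 1 and 1 with every probe set.

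Of 33 cytokine receptor genes 8 fell and only Il2ra rose (median -0.40); in bulk RNA a fall can mean less RNA per cell or fewer cells of a type, and these cannot be told apart. Il17ra measured 9.95 and 9.56 after PBS and 8.49 and 8.49 after anti-DEC205-BDC (2.41-fold lower, adjusted p = 0.00278). Both chains of the interferon gamma receptor fell. Ifngr1 went from 9.02 and 8.24 to 7.24 and 7.24 and was lost with every probe set tested (adjusted p = 0.0696), and Ifngr2 from 9.14 and 9.19 to 7.86 and 8.13, lost with every probe set (0.108) and without DEC205 array 1 (0.0879), PBS array 1 (0.0631) or PBS array 2 (0.0685). Il6ra and Il10ra fell, with log2 changes of -0.96 and -1.21, and were both lost with every probe set (0.0536 and 0.0625), and Il4ra did not pass (log2 change -0.26). With every probe set tested, 2 cytokine receptors fell.

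Some genes that guide T cells through tissues were called in either direction. S1pr1, the receptor by which T cells leave lymphoid organs, measured 9.50 and 9.71, then 7.86 and 7.95 (3.25-fold lower, standard error of the log2 change 0.21, adjusted p = 0.00144). It was 1 of 4 falls against 3 rises among 39 chemokine and egress receptors (median -0.27), but 1 or 0 rose without any 1 of the 4 arrays, and 1, 2 and 2 fell without DEC205 array 2, PBS array 1 and PBS array 2. With every probe set 0 rose and 1 fell. In the main fit 7.69% of these receptors rose, near the 5.32% of all genes, and 10.3% fell, against 3.53%. Cxcr4 (10.49 and 8.85, then 8.95 and 7.27) did not pass, with a spread within groups as wide as the difference between them. It passed with the replicate block (0.00143) and without DEC205 array 1 (0.0416). Of 48 adhesion and homing molecules 14 fell and 4 rose (median -0.29). Integrin chains led the falls: Itgb7, which pairs with Itga4 for homing to the gut, went from 9.36 and 9.42 to 7.84 and 8.0 (2.78-fold, adjusted p = 0.00124) and Itga4, picked after its values were seen as its partner, fell by 1.16 on the log2 scale. Selplg, a selectin ligand, fell from 10.75 and 11.02 to 9.63 and 9.55. Cd24a, a small glycoprotein of activated and immature lymphocytes, rose 4.16-fold (5.02 and 4.52, then 6.79 and 6.86). Itgb2, the chain of LFA-1, and Cd44 stood at -0.09 and 0.12 with overlapping arrays. The falls numbered 6 without DEC205 array 2, 8 without PBS array 2 and 4 with every probe set tested.

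**Figure D4:**
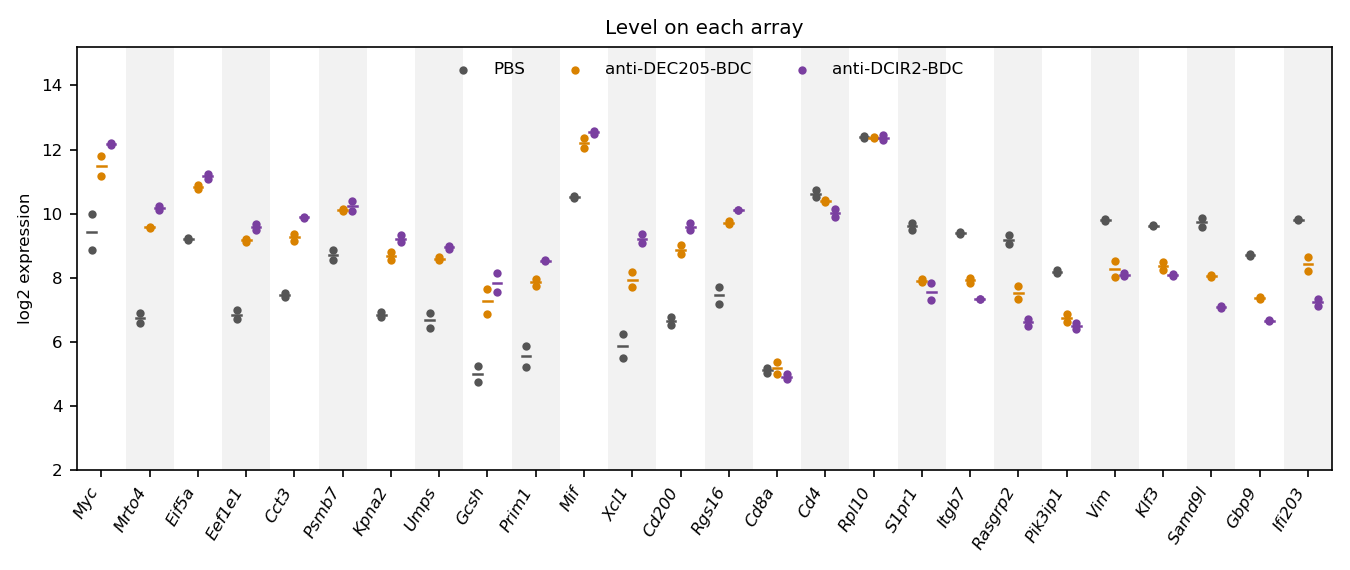
Log2 level on each of the 6 arrays (points) and group mean (line) for 26 genes, PBS in grey, anti-DEC205-BDC in orange and anti-DCIR2-BDC in purple; levels of different genes are not on a common scale. From Myc to Rgs16 both anti-DEC205-BDC arrays lie above both PBS arrays, Cd8a, Cd4 and Rpl10 did not pass, and from S1pr1 to Ifi203 both lie below.

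Of 71 components of the T cell receptor pathway 16 fell and 1 rose (median -0.29). Rasgrp2, an activator of Rap1 that responds to calcium, went from 9.32 and 9.06 to 7.75 and 7.33 (3.12-fold lower, adjusted p = 0.00166), Itpr2, a calcium release channel, from 9.60 and 9.92 to 8.55 and 8.60, and the adaptor Fyb from 10.28 and 10.52 to 9.29 and 9.52. Zap70, the kinase recruited by the receptor, was the 1 rise (8.45 and 8.87, then 9.64 and 9.98), lost without DEC205 array 2 (adjusted p = 0.0566) and with every probe set (0.071). Lat and Grb2, adaptors of the same cascade, stood at -0.21 and 0.03 with overlapping arrays. The CD3 chains Cd3d, Cd3e and Cd3g changed by -0.48, -0.40 and -0.47 without overlap and did not pass (adjusted p 0.0645, 0.0707 and 0.0701). All 3 CD3 genes, Cd3d, Cd3e and Cd3g, passed with quantile normalization (0.0276, 0.019 and 0.0401), and Cd3e also with the replicate block, on the 4 arrays alone and without either anti-DCIR2-BDC array. The 16 falls were 8 or 9 without any 1 of the 4 arrays and 3 with every probe set tested.

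Brakes on these signals were called in both directions. Of 50 such genes 4 rose (8.0%, near the 5.32% of all genes) and 7 fell (14.0%, against 3.53%). Spry1, an inhibitor of Ras signalling, went from 6.05 and 6.14 to 7.80 and 7.89, and Dusp4, a phosphatase of MAP kinases, from 5.11 and 5.43 to 6.65 and 7.07. The Ras inactivator Rasa3 fell from 9.60 and 9.78 to 7.92 and 8.02 (3.30-fold, adjusted p = 0.0017) and Dgka, which consumes diacylglycerol, from 11.49 and 11.85 to 10.46 and 10.45. Cblb and Dusp2 stood at 0.02 and 0.03. In the PI3K and mTOR pathway 2 of 40 rose (5.0%, near the share of all genes) and 5 fell (12.5%). Pik3ip1, an inhibitor of PI3K, went from 8.23 and 8.16 to 6.87 and 6.63 (2.73-fold lower, adjusted p = 0.0017), and Mtor itself did not pass (7.14 and 7.39, then 7.12 and 7.53). Without DEC205 array 2 or PBS array 1, 2 or 3 of that list fell and 0 rose, 1 rose without DEC205 array 1 or PBS array 2, and with every probe set 0 rose and 1 fell. On the 4 arrays alone or without either anti-DCIR2-BDC array 1 rose and 3 fell.

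Many interferon-stimulated genes fell. Of 53 genes induced by type I interferon 0 rose and 25 fell (median -0.74), with 19 to 21 falls without any 1 of the 4 arrays and 8 with every probe set tested. Samd9l, a restriction factor, measured 9.88 and 9.60 after PBS and 8.03 and 8.09 after the antibody (3.21-fold lower, adjusted p = 0.000809). Zbp1, a sensor of unusual nucleic acids, went from 9.07 and 9.26 to 7.52 and 7.71, Ifit1 from 6.88 and 6.48 to 5.24 and 5.38 and Slfn5 from 7.67 and 7.43 to 5.99 and 6.37. Bst2, Isg20 and Ifih1, also classical members, stood at -0.09, 0.06 and -0.07 with overlapping arrays. The mean level of 14 macrophage and 18 dendritic cell markers, cells that also carry interferon-stimulated transcripts, moved by little, as given above, and their part in these falls was not tested.

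In related families some members fell too. Of 10 GTPases induced by interferon gamma 0 rose and 7 fell (median -0.98): Gbp9 went from 8.69 and 8.74 to 7.33 and 7.41 (2.54-fold, adjusted p = 0.00181), and Gbp5 did not pass (6.61 and 6.29, then 6.13 and 6.12). With every probe set tested 2 of these GTPases fell. Of 10 Ifi200 genes, DNA sensors in 1 gene cluster, 5 fell. Ifi203 measured 9.83 and 9.80, then 8.64 and 8.21, and Aim2, the inflammasome sensor of that family, 8.01 and 8.26, then 8.15 and 8.15 (95% interval of the log2 change -0.44 to 0.46). Transcripts of such close relatives can bind each other's probes. Of 9 Schlafen genes 4 fell and 0 rose (median -0.51), with Slfn1 lower (10.24 and 10.12, then 8.86 and 8.91) and Slfn2 overlapping (10.52 and 10.36, then 10.38 and 10.66). Of 8 Gimap genes, which support T cell survival, 3 fell, among them Gimap6 (10.03 and 10.05, then 9.20 and 9.17), and Gimap1 stood at -0.05. Without DEC205 array 1, 2 Schlafen genes fell, and with every probe set 3 Ifi200, 2 Schlafen and 1 Gimap genes did.

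The interferon-stimulated response element is read by IRF and STAT complexes. Its core (GAAA, any 2 bases, GAAA), on either strand, occurred in 3.45% of the 12935 promoters of genes tested, in 6.59% of those of genes that fell (27 of 410), in 2.71% of those of genes that rose (20 of 737) and in 41.2% of those of the interferon-stimulated genes (14 of 34). Since such genes were grouped by their response to interferon, that last share describes the list and not this comparison. Ifit1 on the plus strand of chr19:34640639-34640888, with 2 matches, and Slfn5 on the plus strand of chr11:82951852-82952101, with 1, are shown over the 250 bases before the start with the matches in capitals, as the genes with the largest falls among those with a match in this stretch. The first matches end 94 and 145 bases before the start site. The match in Slfn5 lies in a run of adenines.
Ifit1: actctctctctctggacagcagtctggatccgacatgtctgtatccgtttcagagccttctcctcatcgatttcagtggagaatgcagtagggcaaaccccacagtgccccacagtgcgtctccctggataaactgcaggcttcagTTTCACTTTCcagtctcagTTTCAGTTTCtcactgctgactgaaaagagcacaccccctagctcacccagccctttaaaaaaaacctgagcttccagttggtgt
Slfn5: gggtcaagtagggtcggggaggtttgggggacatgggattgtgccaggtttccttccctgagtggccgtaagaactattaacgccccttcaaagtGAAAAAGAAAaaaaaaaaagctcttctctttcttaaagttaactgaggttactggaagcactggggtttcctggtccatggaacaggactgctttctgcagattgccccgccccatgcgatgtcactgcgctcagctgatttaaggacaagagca

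**Figure D5:**
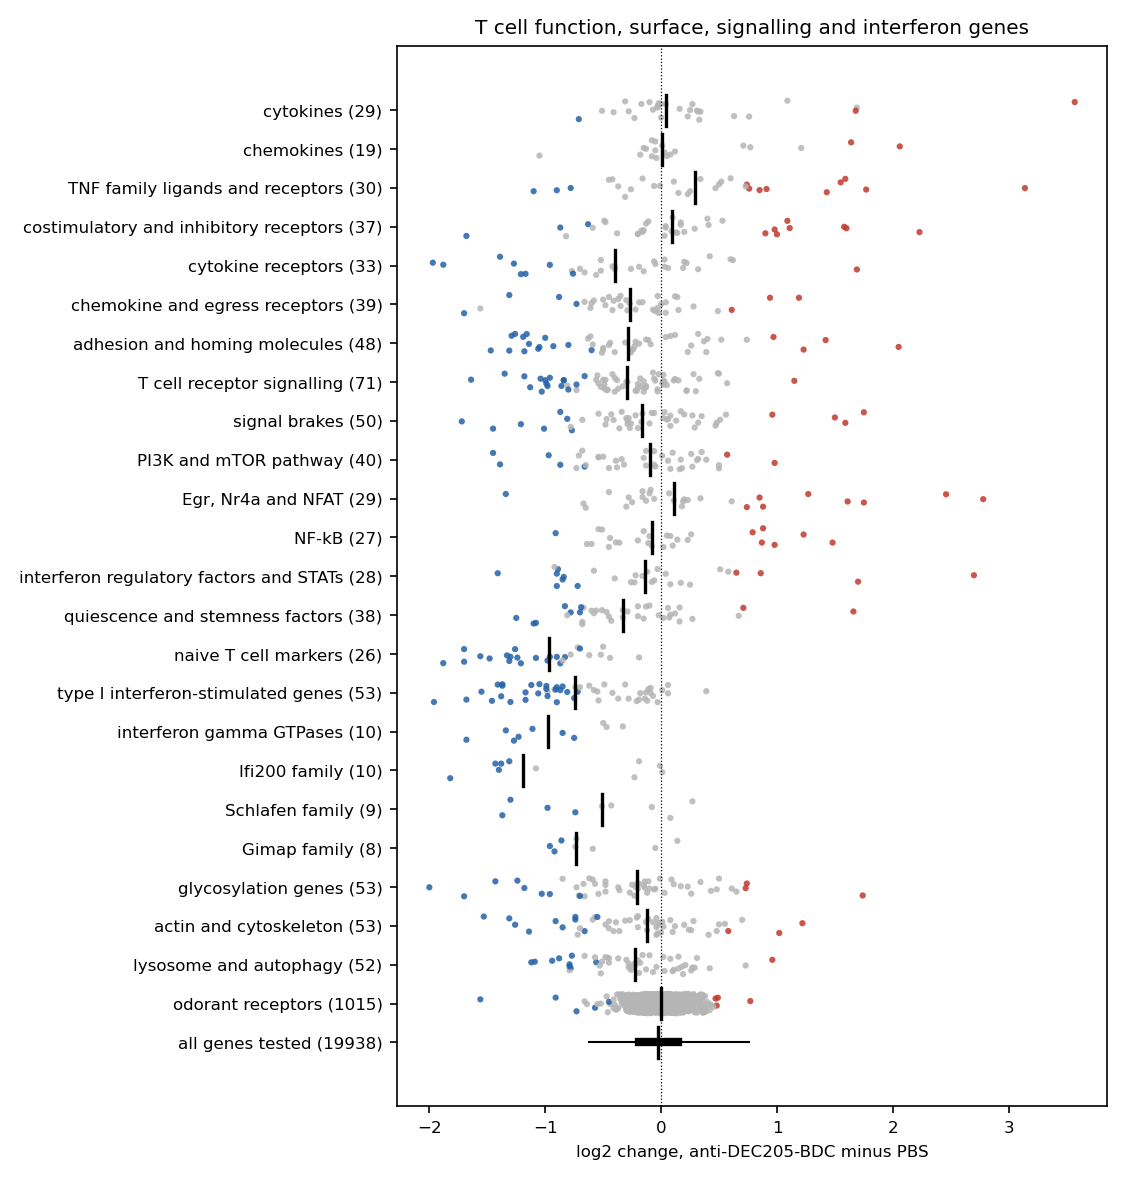
Each point is the log2 change (anti-DEC205-BDC minus PBS) of 1 gene, red where it rose, blue where it fell and grey where it did not pass, in groups of T cell function, surface, signalling and interferon genes; black ticks are group medians and the bottom row gives all genes with the quartiles as a thick bar and the 5th to 95th percentiles as a line. The interferon gamma GTPases (median -0.98), naive markers (-0.97) and type I interferon-stimulated genes (-0.74) lie left of 0. The 1015 odorant receptors, with a median PBS level of only 3.74, centre on 0.

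Of 26 markers of naive T cells, 18 fell, 0 rose and all 26 had both antibody arrays below both PBS arrays (median -0.97). Over all genes, 3.53% fell and 26.5% had both antibody arrays below both PBS arrays. The list was chosen with earlier results of these data known, so these counts are no independent support. Gramd3, for example, went from 9.24 and 9.13 to 7.95 and 7.46, 2.8-fold lower. The count was 11 without PBS array 2 and 6 with every probe set. Of 53 glycosylation genes 8 fell (15.1%) and 3 rose (5.66%, near the 5.32% of all genes). The sialyltransferases St8sia4 (8.18 and 8.27, then 6.74 and 6.86) and St8sia6 (8.51 and 8.48, then 6.96 and 6.64) fell 2.69- and 3.24-fold, and St6galnac4, which sialylates O-glycans, rose from 5.95 and 6.20 to 7.58 and 8.05, lost with every probe set (adjusted p = 0.0657). The glycosylation falls were 5 without DEC205 array 1 or 2 and 2 with every probe set, and the rises 1 without any 1 of the 4 arrays and 0 with every probe set.

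Of 53 cytoskeletal genes 10 fell (18.9%) and 3 rose (5.66%, near the 5.32% of all genes). Vim, the intermediate filament protein vimentin, measured 9.77 and 9.83, then 8.53 and 8.01 (2.89-fold lower, adjusted p = 0.00172). Pfn1 (12.09 and 12.26, then 12.07 and 12.30) and Rhoa (10.53 and 10.62, then 10.44 and 10.66), central actin regulators, overlapped between the groups. The falls numbered 6 without DEC205 array 1 or with median centring, 5 and 4 without DEC205 array 2 and PBS array 2, and 1 with every probe set. The rises numbered 1 without DEC205 array 2 or PBS array 1 and 0 with every probe set. Of 52 lysosome and autophagy genes 9 fell and 1 rose (median -0.23), a count that rested on single arrays: 0 fell without DEC205 array 1, 2 without DEC205 array 2, 2 without PBS array 1, 4 without PBS array 2 and 0 with every probe set. Of 24 granzyme and killer receptor genes 1 rose and 3 fell, or 1 without DEC205 array 1 and 0 with every probe set. The rises made up 4.17% of the list, near the 5.32% of all genes, and the falls 12.5%, against 3.53%. The 1 rise was Cst7, an inhibitor of granule proteases, from 7.19 and 7.06 to 8.63 and 8.52. Prf1 (perforin) fell from 7.57 and 7.59 to 6.50 and 6.72, lost with every probe set (adjusted p = 0.0567) and without DEC205 array 1 (0.0648). The mean level of 10 natural killer cell markers, which include Prf1, was 5.48 to 5.70 after PBS and 5.48 to 5.52 after the antibody. This mean joins changes in both directions. Of these markers 1 rose and 2 fell, with log2 changes from -1.54 to 1.64 (median -0.01). With every probe set tested 0 rose and 0 fell, and 1 fell without DEC205 array 1. The part of natural killer cells in the changes of granzyme and killer receptor genes was not tested.

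Among the largest remaining changes outside these groups, Utf1, a chromatin factor known from stem cells, went from 5.43 and 5.66 to 8.0 and 8.22 (5.92-fold, adjusted p = 0.000251). Pa2g4, a growth-linked RNA-binding protein, rose from 8.43 and 8.56 to 10.42 and 10.54 (3.98-fold), and the carbonic anhydrase Car12 from 5.17 and 5.51 to 7.84 and 7.71. The kinase Chek1, which guards replication forks, rose by 2.09. On the falling side, Gmfg, a regulator of actin branches, went from 10.63 and 10.96 to 8.91 and 9.26 (3.27-fold), Pdlim4 from 8.36 and 8.67 to 6.92 and 6.84, and Cd55, which shields cells from complement, from 7.04 and 7.56 to 5.73 and 5.64. The dynein gene Dnah8 (8.03 and 8.46, then 6.38 and 6.60), the ubiquitin ligase Znrf1 (9.54 and 9.72, then 7.89 and 8.20) and Scml4 (9.13 and 9.40, then 7.60 and 7.52) fell, with log2 changes of -1.75, -1.58 and -1.70. Altogether 459 rises and 460 falls lay outside the function groups and families counted here.

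Large families of receptors with no known part in T cells had low signals and few calls. Of 1015 odorant receptor genes 5 rose and 5 fell (median 0.00), and of 163 vomeronasal receptors 0 rose and 0 fell. Leaving out DEC205 array 1, DEC205 array 2, PBS array 1 and PBS array 2 gave 10 and 4, 1 and 2, 0 and 2, and 1 and 8 odorant receptors up and down, and with median centring 11 rose. The shares of both families lie below the 5.32% and 3.53% of all genes. Their median PBS levels were 3.74 and 3.56, against 5.66 for all genes. Probe sets so near the floor can hardly show a change, so their few calls say little about other genes. Of 300 microRNA genes, also dim with a median PBS level of 4.4, 1 rose and 6 fell. At an unadjusted p under 0.05, 4135 of all genes differed.

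Finally, the cells given anti-DEC205-BDC were set against those given anti-DCIR2-BDC, which delivers the same antigen to another type of dendritic cell. Only 4 of 19938 genes (0.0201%) differed in that test, and 2036 did at an unadjusted p under 0.05. Of the 1763 genes called against PBS only 1 was among the 4: Cpd, a carboxypeptidase of the secretory pathway, named because it was the only one. It measured 5.49 and 5.68 after PBS, 6.23 and 6.51 after anti-DEC205-BDC and 7.90 and 8.15 after anti-DCIR2-BDC, a difference of 1.66 between the antibodies (adjusted p = 0.0289). Its rise over PBS was lost with every probe set (0.114) and without DEC205 array 1 (0.0523), DEC205 array 2 (0.184), PBS array 1 (0.161), PBS array 2 (0.0698) or either anti-DCIR2-BDC array (0.0515 and 0.0505). The other 3, Il3, Serpinb6b and Zbtb32, did not pass between anti-DEC205-BDC and PBS. The count of 4 was 0 to 27 with 1 array left out, 0 with every probe set tested or with no variance trend, and 9 without the dimmest 50% of genes. Few calls do not show that the antibodies act alike: in the median gene a difference of up to 0.39 to either side of the measured log2 change lay within the 95% interval.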

How the data were processed

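RNA of sorted CD4 T cells was amplified from 5 ng of total RNA, per the labels' protocols, and hybridised to Affymetrix mouse arrays, with 2 arrays for each of 3 groups. The deposited log2 values were made by the authors with the RMA algorithm in Partek, per the design text and the submitters' processing notes, with versions not given in the sources used here. RMA compresses differences near both ends of the scale, and array signals hold no read depth, so the 2 arrays per group limit the precision. Gene symbols came from the platform's annotation: 21789 probe sets had 1 symbol, 1621 several and 12146 none, and 21698 were matched to RefSeq by Entrez identifier.

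Group means over all 6 arrays were fitted with limma 3.58.1 in R 4.3.3 (empirical Bayes with a variance trend, two-sided), and p-values were Benjamini-Hochberg adjusted over 19938 genes at a threshold of 0.05. The script was tested on simulated data. Levels were compared between arrays for a gene and not between genes, except that the naming rule and the settings without dim genes rank genes by their signal.

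The members and lists, 82 of function and family and 12 of cell markers, were chosen with earlier results of these data known, and 12 of the families after their values were seen. Named genes were those ranked 11 to 30 in either direction, up to 8 members of a list with the largest change, up to 6 nearest to 0 with a mean above the median of all genes, the 20 brightest of at least 2-fold change, the 15 with the smallest p and the cell markers. Lists are described by counts and medians, with no test of the list. The 15 alternatives were every probe set, median centring, quantile normalization, no or robust variance trend, the 4 arrays alone, a replicate block, each array left out and no dim genes. The titles give replicate numbers but no pairing, and the main fit did not pair the samples. Deviations of same-numbered arrays correlated at 0.145 between PBS and DEC205, 0.131 between PBS and DCIR2 and 0.071 between the antibodies. These values were small and positive, and pairing was not tested. At most 22 values were identical between any 2 arrays.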

Additional observations from a re-analysis of the deposited data

Results flagged for a closer look

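Between the antibodies, 3 genes differed that had not passed between anti-DEC205-BDC and PBS. Il3, a growth factor of blood cells, measured 4.55 and 6.34 after anti-DEC205-BDC and 9.35 and 10.34 after anti-DCIR2-BDC, a difference of 4.40 on the log2 scale (limma adjusted p = 0.0289). Serpinb6b, a protease inhibitor, differed by 1.95 (5.80 and 5.86, then 7.50 and 8.07). Zbtb32, a zinc finger repressor of activated lymphocytes, differed by 1.87 (6.40 and 6.68, then 8.16 and 8.65). In each of the 3 genes both arrays of anti-DCIR2-BDC lay above both arrays of anti-DEC205-BDC. This comparison and the one of anti-DEC205-BDC with PBS share the anti-DEC205-BDC arrays.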

How the results depend on the processing

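All 1763 called genes kept their sign under each alternative, but many alternatives fixed this in advance because they leave the log2 change as it was. With every probe set tested, 341 genes rose and 108 fell in place of 1060 and 703. With 1 array left out, between 601 and 852 rose and between 359 and 515 fell. The 4 genes that differed between the antibodies were 0 with every probe set or no variance trend, 2 with the replicate block, 7 and 9 without the dimmest 30% and 50% of genes, and 0 to 27 with 1 array left out. The 4 arrays alone give no value for that comparison. With the replicate block 1222 genes rose and 847 fell. The titles do not say whether arrays of the same replicate number belong together, so the block result is given as a value only. Leaving out an array leaves 1 group with a lone array, which is assumed to vary like the others. With 2 arrays a group, the median gene's 95% interval spans 0.39 on either side of its log2 change, before any adjustment over genes, and the median called rise was 1.04. A gene that did not pass is not shown to be unchanged. The causes of these shifts were not tested.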

Other observations

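Other machinery of gene expression rose as well. Of 13 subunits of RNA polymerase II, 5 rose and 0 fell (3 without DEC205 array 2, without PBS array 2 or with every probe set tested), with Polr2h, a subunit shared by all nuclear polymerases, from 6.85 and 6.93 to 8.26 and 8.78. Of 10 N-terminal acetyltransferase genes, 4 rose (2 without DEC205 array 1, without PBS array 1 or with every probe set), among them Naa25, from 6.43 and 6.59 to 7.67 and 7.75. Of 51 DEAD and DEAH box helicases, 10 rose and 4 fell, or 6 and 2 without PBS array 1, and 6 and 1 with every probe set. Without PBS array 2, DEC205 array 1 or DEC205 array 2, 1, 2 or 2 fell. The nucleolar helicases Ddx21 (8.06 and 8.20, then 9.67 and 9.70) and Ddx18 (8.20 and 8.41, then 9.65 and 9.58) rose.

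Among families of signal regulators, Rgs16, which shuts off G protein signals, rose 4.82-fold (7.72 and 7.19, then 9.69 and 9.76) while its relative Rgs14 fell 2.15-fold (8.65 and 8.36, then 7.39 and 7.41). Ypel5, a Yippee-like gene, went from 7.93 and 8.36 to 6.55 and 6.80, 2.78-fold lower. Of 22 RGS genes 1 rose (4.55%, near the 5.32% of all genes) and 2 fell (9.09%, against 3.53%). Of 5 Yippee-like genes 0 rose and 2 fell (40.0%). With every probe set tested 1 RGS gene and 1 Yippee-like gene fell. Of 347 zinc finger genes named Zfp, 6 rose and 17 fell (4.9%, near the 3.53% of all genes). The falls numbered 0 with every probe set tested, 10 with median centring or without DEC205 array 1, 7 on the 4 arrays alone or without PBS array 1, and 8 and 7 without either anti-DCIR2-BDC array. The rises numbered 3 with every probe set or without PBS array 1. The families of RNA polymerase II, of acetyltransferases, of RGS genes and of Yippee-like genes were put together after their values were seen.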
